A study of Homo sapiens with 148 samples.

Results

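The FOXA family comprises 3 genes, FOXA1, FOXA2 and FOXA3, which were taken by name from a table of 49085 gene names and described across the 6 stages of a pancreatic differentiation. Each of the 3 names had a single entry. The series holds 148 samples of several genomic assays, of which 12 are bulk RNA-seq samples, 2 per stage, and the RNA-seq table is the data used. It gives the mean TPM (a unit that corrects for transcript length and gives every stage the same total) of the replicates, so each stage is 1 value with no spread, and no test between stages could be made. All cells carried the wild-type genotype and came from H9, a single established human embryonic stem cell (hESC) line. The stages were undifferentiated hESCs, definitive endoderm (DE) at day 4, primitive gut tube (PGT) at day 7, pancreatic progenitors (PP) at day 14, organoids with β cells made from the stem cells (SC-β) at day 35, and PH, a stage name that neither the labels nor the text of the study spell out, with no stated day. For differentiation, the cells were cultured as clusters in suspension. They were exposed in turn to the ligands and small molecules of a stepwise protocol, beginning with activin A and CHIR99021 and followed by KGF. Retinoic acid, the Hedgehog inhibitor Sant1, the BMP inhibitor LDN193189, the protein kinase C activator PdBU and the ROCK inhibitor Y27632 were given on the way to PP. The TGF-β receptor inhibitor Alk5 inhibitor II and thyroid hormone T3 were given from day 14 on. The γ-secretase inhibitor XXI and betacellulin were also given from day 14, but not in the last medium. Retinoic acid and Sant1 were continued for part of the time after day 14, and Y27632 had also been given at the start. Which of these treatments the PH cells received is not stated in the sources used here. The hESCs are the undifferentiated start of that protocol. H9 cells were kept on coated cultureware and then formed into clusters in another medium with Y27632 before activin A was added. Whether the hESC samples were taken before or after that step is not stated in the sources used here. Comparisons with hESCs may therefore also hold a difference in culture, which was not tested. Organoids hold several cell types, and a lower value in bulk RNA can come from fewer cells of a type or from less RNA per cell, which cannot be told apart here.

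FOXA proteins are pioneer factors. They bind DNA through a winged helix, the forkhead domain, that resembles linker histone, and they can reach their sites on nucleosomes before other regulators do. They are known for opening the enhancers of foregut endoderm and of its liver, pancreas and lung derivatives, and they bind partly overlapping sets of sites. FOXA2 acts earliest in the embryo, in the node, notochord, floor plate and endoderm, FOXA1 follows in the endoderm and its epithelia, and FOXA3 is known mainly from liver and gut.

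Stage labels were checked against their markers. POU5F1, the pluripotency factor, was at 1449 TPM in hESCs, SOX17, a DE factor, at 96.1 TPM in DE, and HNF4A, of the gut tube, at 33.7 TPM in PGT. PDX1, which defines pancreatic progenitors, was at only 3.17 TPM in PP. In SC-β, INS reached 298 TPM and GCG, the α cell hormone, 2793 TPM. In PH, PDX1 was at 0.0173 TPM and INS at 6.86 TPM. Between 16784 names in hESCs and 24571 in SC-β reached 1 TPM, and the 100 most abundant names took between 48.1% of the total in DE and 63.5% in PH. TPM keeps no read counts, and the depth behind each value is unknown. Every stage is scaled to a fixed total. A typical gene was itself shifted from hESCs by a log2 ratio of 0.48 (DE), 0.34 (PGT), 0.25 (PP), 0.03 (PH) and 0.52 (SC-β). This was taken over the 13938 names at 1 TPM or more in every stage, and the cause of the shift was not tested.

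The 3 genes lie on separate chromosomes (GENCODE version 44, GRCh38, the same build as the authors' hg38). FOXA1 (ENSG00000129514.8) is at chr14:37589552-37596059 on the reverse strand, FOXA2 (ENSG00000125798.15) at chr20:22580998-22585455 on the reverse strand, and FOXA3 (ENSG00000170608.3) at chr19:45863989-45873797 on the forward strand. The canonical transcript of each has 2 exons. These transcripts are 3509, 2538 and 1923 bases long, of which 1416, 1389 and 1050 are coding. The stretch below, 90 bases of the coding part of exon 2 in each gene, encodes the beginning of the forkhead domain. It is printed 5′ to 3′ on the coding strand because it shows how near the paralogues come to sharing reads. Capitals mark the bases that are the same in all 3 genes.
FOXA1, chr14:37592187-37592276, reverse strand: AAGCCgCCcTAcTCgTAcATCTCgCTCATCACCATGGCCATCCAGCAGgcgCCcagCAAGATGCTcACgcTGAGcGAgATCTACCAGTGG
FOXA2, chr20:22582660-22582749, reverse strand: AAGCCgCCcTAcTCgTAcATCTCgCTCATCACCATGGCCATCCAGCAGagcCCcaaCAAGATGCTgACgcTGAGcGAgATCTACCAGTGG
FOXA3, chr19:45872354-45872443, forward strand: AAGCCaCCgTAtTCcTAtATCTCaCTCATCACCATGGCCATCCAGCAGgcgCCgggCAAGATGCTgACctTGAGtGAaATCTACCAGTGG

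In this stretch 73 of 90 bases were the same in all 3 genes. FOXA1 and FOXA2 had the same base at 85 positions, FOXA1 and FOXA3 at 77, and FOXA2 and FOXA3 at 74. The longest run that 2 canonical transcripts shared was 48 bases in FOXA1 and FOXA2, and 29 bases in each of the other pairs. The reads were paired and 50 bases long, and 0 windows of 50 bases were identical between any 2 of the transcripts. With up to 2 mismatches allowed, 112 of the 3460 windows of FOXA1 matched FOXA2, and 0 windows matched in the other pairs. No stretch as long as a read was thus identical in the canonical transcripts of any pair. How the authors' counting treated near matches is not stated in the sources used here.

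The 3 paralogues followed different courses along the differentiation. FOXA1 was nearly off in hESCs, at 0.0733 TPM, then 28.5 TPM in DE, 86.0 TPM in PGT, 25.8 TPM in PP, 14.7 TPM in SC-β and 1.96 TPM in PH. It was thus highest in PGT, and every other stage was above hESCs. FOXA2 was at 1.88 TPM in hESCs, 39.6 TPM in DE, 48.7 TPM in PGT, 13.2 TPM in PP, 5.44 TPM in SC-β and 1.17 TPM in PH. It too was highest in PGT, but DE had already reached 81.2% of that level, compared with 33.1% for FOXA1. FOXA3 was at 9.30 TPM in hESCs, 37.0 TPM in DE, 26.9 TPM in PGT, 4.04 TPM in PP, 1.60 TPM in SC-β and 0.150 TPM in PH. It was the only one of the 3 that was highest in DE and that lay below its hESC level in PP, SC-β and PH. The order of the stages was therefore PGT, DE, PP, SC-β, PH, hESCs for FOXA1, PGT, DE, PP, SC-β, hESCs, PH for FOXA2, and DE, PGT, hESCs, PP, SC-β, PH for FOXA3. Without values of single replicates it cannot be said which neighbours in these orders differ beyond their spread.

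**Figure D1:**
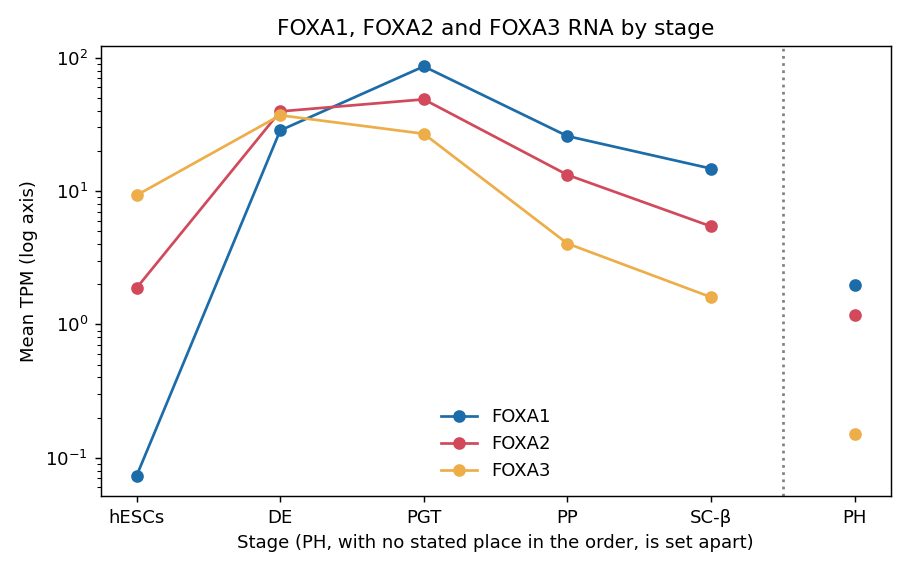
Mean TPM (log axis) of FOXA1, FOXA2 and FOXA3 in each stage; points are the authors' means of 2 samples and have no error bars, and PH is set apart because its place in the order is not stated. FOXA1 starts lowest in hESCs, at 0.0733 TPM, and ends highest in SC-β, at 14.7 TPM, while FOXA3 does the reverse.

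The paralogues exchanged places as the main FOXA transcript. The share of a gene is its TPM divided by the summed TPM of the 3, which does not depend on how a stage is scaled. In hESCs FOXA3 held 82.7% of the FOXA TPM, FOXA2 16.7% and FOXA1 0.651%. In DE the shares were close to each other, with FOXA2 at 37.7%, FOXA3 at 35.2% and FOXA1 at 27.1%. In the other stages FOXA1 was the most abundant, at 53.2% in PGT, 59.9% in PP, 59.8% in PH and 67.7% in SC-β. The share of FOXA3 was 16.6% in PGT, 9.38% in PP, 7.35% in SC-β and 4.58% in PH. Outside hESCs, FOXA2 kept the narrowest range, from 25.0% in SC-β to 37.7% in DE, with 30.1% in PGT, 30.7% in PP and 35.6% in PH. FOXA2 was therefore the lead paralogue only in DE, and there FOXA3 was close behind.

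The ratio of FOXA1 to FOXA2, the pair known to act redundantly in liver and pancreas development, was 0.0390 in hESCs and 0.720 in DE, and then 1.77 (PGT), 1.95 (PP), 1.68 (PH) and 2.71 (SC-β). It crossed 1 between DE and PGT. The ratio of FOXA3 to FOXA2 went the other way, from 4.96 in hESCs to 0.935 in DE, 0.552 in PGT, 0.306 in PP, 0.295 in SC-β and 0.129 in PH.

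**Figure D2:**
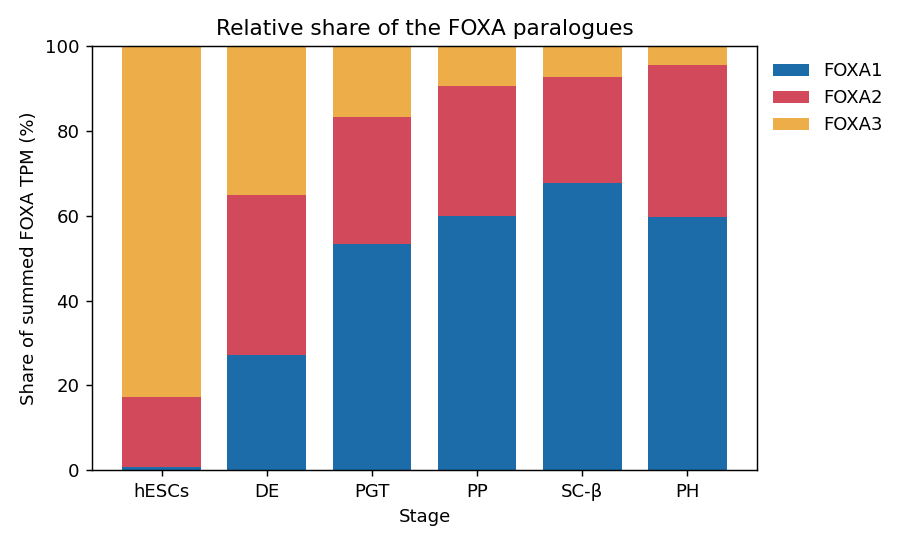
Stacked bars of the share (%) of each paralogue in the summed FOXA TPM of a stage; each bar totals 100% and rests on 1 mean value per gene. The FOXA3 segment is 82.7% in hESCs and 7.35% in SC-β, and the FOXA1 segment is 0.651% and 67.7%.

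The summed level of the family was highest in the endoderm stages DE and PGT. It was 11.3 TPM in hESCs, 105.1 TPM in DE, 161.6 TPM in PGT, 43.1 TPM in PP, 21.8 TPM in SC-β and 3.28 TPM in PH. Of the summed TPM of all 44 forkhead genes in the table, FOXA genes held 4.66% in hESCs and 4.41% in SC-β. In between they held 21.2% (DE), 27.6% (PGT) and 14.7% (PP), and in PH 1.27%. The share in SC-β was thus near that in hESCs, with FOXA1 as the main transcript in the former and FOXA3 in the latter.

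The first step, DE against hESCs, asks which genes endoderm formation turns on. Log2 ratios were computed after adding 1 TPM to each mean, which understates the change of low genes, and genes at least 2-fold apart were counted. All 3 members were at least 2-fold higher in DE, as were 22.5% of the 28202 names tested, whereas 4.43% were lower. The log2 ratio was 4.78 for FOXA1, 3.82 for FOXA2 and 1.88 for FOXA3. Of the names tested, 32 had a higher ratio than FOXA1, 116 than FOXA2 and 1260 than FOXA3. The order of these ratios was the reverse of the order of the hESC levels, which are their denominators. The DE levels lay close together, from 28.5 to 39.6 TPM, against 0.0733 to 9.30 TPM in hESCs.

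The next step, PGT against DE, divides the family. FOXA1 was 3.02-fold higher in PGT (log2 ratio 1.56), where 4.00% of the names tested were at least 2-fold higher and 8.56% lower. FOXA2 and FOXA3 were within 2-fold, with log2 ratios of 0.29 and -0.45. Of the names tested, 495 exceeded the ratio of FOXA1 and 4869 that of FOXA2.

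From PGT to PP all 3 members were at least 2-fold lower, as were 5.65% of the names tested, whereas 4.77% were higher. The log2 ratio was -1.70 for FOXA1, -1.81 for FOXA2 and -2.47 for FOXA3, and 499, 432 and 183 names had a lower ratio. From PP to SC-β, FOXA2 was at least 2-fold lower (log2 ratio -1.14), as were 1.63% of the names tested, whereas 18.5% were higher. FOXA1 and FOXA3 were short of 2-fold, at -0.77 and -0.95, but both passed it once the stages were rescaled by their median ratio, at -1.02 and -1.12. The median log2 ratio of all names tested was 0.39 in this step. The TPM of the 3 members was thus lower in SC-β, whereas a typical name had a higher TPM there.

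Set against hESCs instead, SC-β kept FOXA1 at least 2-fold higher (log2 ratio 3.87) together with FOXA2 (1.16), as were 38.6% of the names tested, and FOXA3 was at least 2-fold lower (-1.99), as were 6.44%. FOXA2 lost this call with the stages rescaled, at a log2 ratio of 0.77. In PGT all 3 members were at least 2-fold above hESCs, as were 17.6% of the names tested, whereas 7.56% were lower. The log2 ratios were 6.34, 4.11 and 1.44 in the order of the names. In PP, FOXA1 (4.64) and FOXA2 (2.31) were at least 2-fold above hESCs, as were 13.9%, and FOXA3 (-1.03) was at least 2-fold below, as were 7.07%. These comparisons share the hESC value and are not independent of each other.

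**Figure D3:**
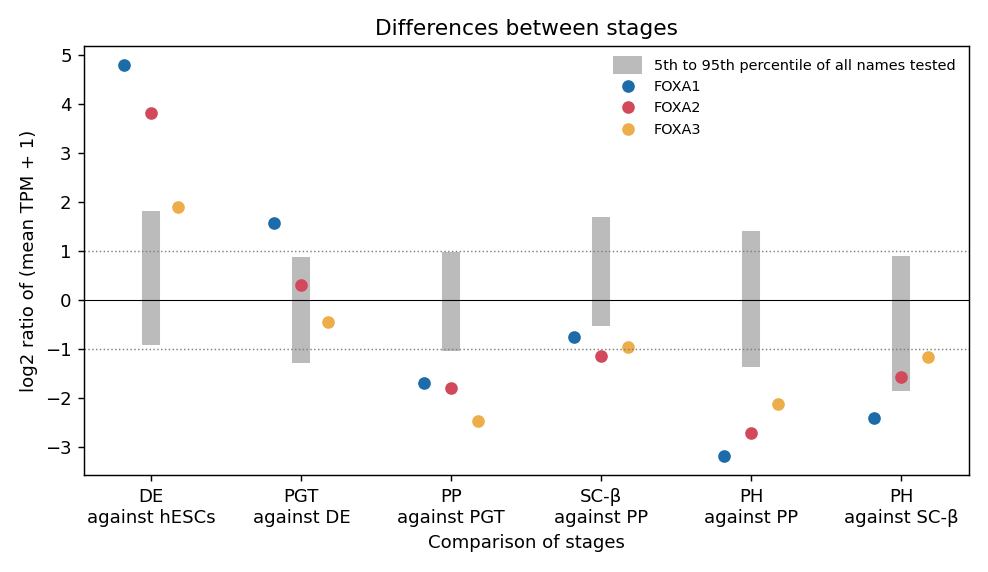
Log2 ratio of mean TPM + 1 (vertical axis) for FOXA1, FOXA2 and FOXA3 in each comparison of stages; grey bars span the 5th to the 95th percentile of the 28202 names tested and dotted lines mark 2-fold. All 3 members lie above the bar for DE against hESCs and below it for PP against PGT, SC-β against PP and PH against PP.

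PH had the least FOXA RNA of the 6 stages. Against PP all 3 members were at least 2-fold lower, as were 9.97% of the names tested, whereas 8.94% were higher. The log2 ratios were -3.18 for FOXA1, -2.71 for FOXA2 and -2.13 for FOXA3. This order depended on the added 1 TPM, since FOXA3 was the lowest gene. Without it the fold was 13.2 for FOXA1, 11.3 for FOXA2 and 26.9 for FOXA3, and with 0.1 TPM added the log2 ratios were -3.65, -3.39 and -4.05. Against SC-β they were at least 2-fold lower as well, as were 25.5% of the names tested, whereas 4.19% were higher. These log2 ratios were -2.41 for FOXA1, -1.57 for FOXA2 and -1.18 for FOXA3, and the folds with nothing added were 7.52, 4.66 and 10.7. Against hESCs, FOXA1 was at least 2-fold higher in PH (1.46), as were 21.0% of the names tested, FOXA3 was at least 2-fold lower (-3.16), as were 14.5%, and FOXA2 was within 2-fold (-0.41). The share of FOXA1 in PH was near that in PP, at 59.8% against 59.9%, but FOXA3 was at 4.58% against 9.38% and FOXA2 at 35.6% against 30.7%.

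Markers of other cells also differed between these stages. Of 10 mesenchymal markers, all 10 were at 1 TPM or more in PP, PH and SC-β, and their summed level was 195 TPM in PP, 1016 TPM in PH and 2011 TPM in SC-β, against 67.1 to 98.8 TPM in the earlier stages. Of 10 neural progenitor markers, 9 were at 1 TPM or more in PH, 6 in PP and 6 in SC-β, with sums of 386, 73.9 and 140 TPM. The highest single gene held 35.2% of the neural sum in PH, 68.9% in PP and 79.5% in SC-β. The earlier neural sums, of 156 TPM in hESCs, 292 TPM in DE and 52.9 TPM in PGT, likewise rested mostly on 1 gene, with 77.8%, 78.4% and 52.7%. The 6 endothelial markers summed to 54.2 TPM in hESCs and 200 TPM in DE, of which VWF was 0.465 and 191 TPM, so that without VWF the sum was 53.7 and 8.80 TPM. They summed to 3.42 TPM in PP, 5.68 TPM in PH and 6.67 TPM in SC-β. None of these markers was listed at 0 in PP, PH or SC-β. EPCAM, an epithelial adhesion protein chosen after its values were seen, was at 180 TPM in PP, 29.3 TPM in PH and 79.4 TPM in SC-β, against 405 TPM in DE. The part of these cells in the FOXA levels was not tested.

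Endoderm partner factors are the regulators that share enhancers with FOXA proteins, among them GATA, HNF and SOX factors. Of 15 such genes, all reached 1 TPM in some stage. In DE against hESCs 9 were at least 2-fold higher and 0 lower, in PGT against DE 6 were higher and 4 lower, and in PP against PGT 1 was higher and 9 lower. Median log2 ratios of these genes were 2.46, -0.20 and -1.30 in these steps, against 0.44, -0.14 and -0.06 for all names tested. Of all names, 22.5%, 4.00% and 4.77% were higher in these steps, and 4.43%, 8.56% and 5.65% were lower. In SC-β against PP 3 partner factors were higher and 3 lower, where 18.5% of all names were higher and 1.63% lower. In PH against PP 1 was higher and 8 lower, where 8.94% of all names were higher and 9.97% lower. The zinc finger factor GATA4 was at 0.734 TPM in hESCs, 47.5 TPM in DE, 29.6 TPM in PGT, 10.2 TPM in PP, 0.682 TPM in PH and 2.53 TPM in SC-β. Its r with FOXA2, described below, was among the 8 highest, although it was highest in DE. HNF4A, the nuclear receptor of liver and gut, followed FOXA1 and FOXA2 to a highest level in PGT, from 19.7 TPM in DE to 33.7 TPM, and was at 3.90 TPM in PP. HHEX, a homeobox repressor of the foregut, had the order of stages of FOXA2, with 137 TPM in PGT and 8.03 TPM in PP. Of 12079 names that reached 10 TPM in some stage, 62 had this order. SOX17 and EOMES, the T-box factor of the primitive streak, were instead highest in DE, at 96.1 and 172 TPM, and at 5.88 and 0.353 TPM in PGT. FOXA3, also highest in DE, was still at 72.7% of that level in PGT.

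Liver genes are the classic targets of FOXA proteins, which were first isolated as binders of liver promoters. Of 16 such genes 13 reached 1 TPM in some stage. In DE against hESCs 4 were at least 2-fold higher and 1 lower, where 22.5% of all names were higher and 4.43% lower. The median log2 ratio of the liver genes was 0.15, against 0.44 for all names tested. In PGT against DE 10 were higher and 0 lower, with a median of 3.34 against -0.14, and 4.00% of all names were higher. In PP against PGT 0 were higher and 9 lower, where 5.65% of all names were lower, and in PH against PP likewise 0 and 9, where 9.97% were lower. In SC-β against PP 5 were higher and 0 lower, where 18.5% of all names were higher. APOA1, an apolipoprotein, was at 0.536 TPM in hESCs, 33.7 TPM in DE, 252 TPM in PGT, 23.2 TPM in PP, 1.35 TPM in PH and 36.0 TPM in SC-β. TTR, the thyroid hormone carrier that is also made in islet α cells, was listed at 0 in hESCs and was at 943 TPM in PGT, 1229 TPM in SC-β and only 55.8 TPM in PP. FGA, a fibrinogen chain, was at 84.8 TPM in PGT and 6.01 TPM in PP. The liver genes summed to 1810 TPM in PGT, where FOXA1 was highest, and to 1556 TPM in SC-β. TTR made up 79.0% of the SC-β sum, and without TTR the sums were 867 TPM in PGT and 327 TPM in SC-β, while the FOXA sums were 161.6 and 21.8 TPM.

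Of 14 pancreatic genes with known FOXA-bound enhancers or FOXA dependence 13 reached 1 TPM in some stage. At least 2-fold higher were 1 in DE against hESCs, 0 in PGT against DE, 6 in PP against PGT and 9 in SC-β against PP, with 0 lower in each of these steps. The shares of all names that were higher were 22.5%, 4.00%, 4.77% and 18.5%. ABCC8, a subunit of the potassium channel of β cells, was at 38.3 TPM in SC-β, compared with 4.27 TPM in PP and 0.475 TPM in PGT. FOXA1 was at 14.7, 25.8 and 86.0 TPM in these stages.

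Among the other forkhead genes, 41 were in the table and 33 reached 1 TPM in some stage. Of these 33, 10 were at least 2-fold higher and 1 lower in DE against hESCs, and in SC-β against PP 15 were higher and 3 lower, the step in which the FOXA genes went down. The shares of all names were 22.5% higher and 4.43% lower in the former step, and 18.5% higher and 1.63% lower in the latter. The median log2 ratio of these genes was 0.20 and 0.78, against 0.44 and 0.39 for all names. FOXA1 ranked 32 of 44 forkhead genes by TPM in hESCs, but 8 in DE, 2 in PGT and 3 in PP, before 12 in SC-β and 17 in PH. FOXA2 was at rank 4 in DE and 3 in PGT, and FOXA3 was at 10 in hESCs and 6 in DE and in PGT. The only forkhead gene above FOXA1 in PGT was FOXP1, a widely expressed repressor, at 182 TPM. FOXH1, the partner of SMAD proteins in activin and Nodal signalling, was above each FOXA gene in DE, at 57.8 TPM, and had been at 21.9 TPM in hESCs. FOXN3 was the highest in hESCs and PH, at 64.3 and 56.5 TPM. Of the 16 other forkhead genes that reached 10 TPM, 8 were highest in SC-β and 1, FOXP1, in PGT.

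**Figure D4:**
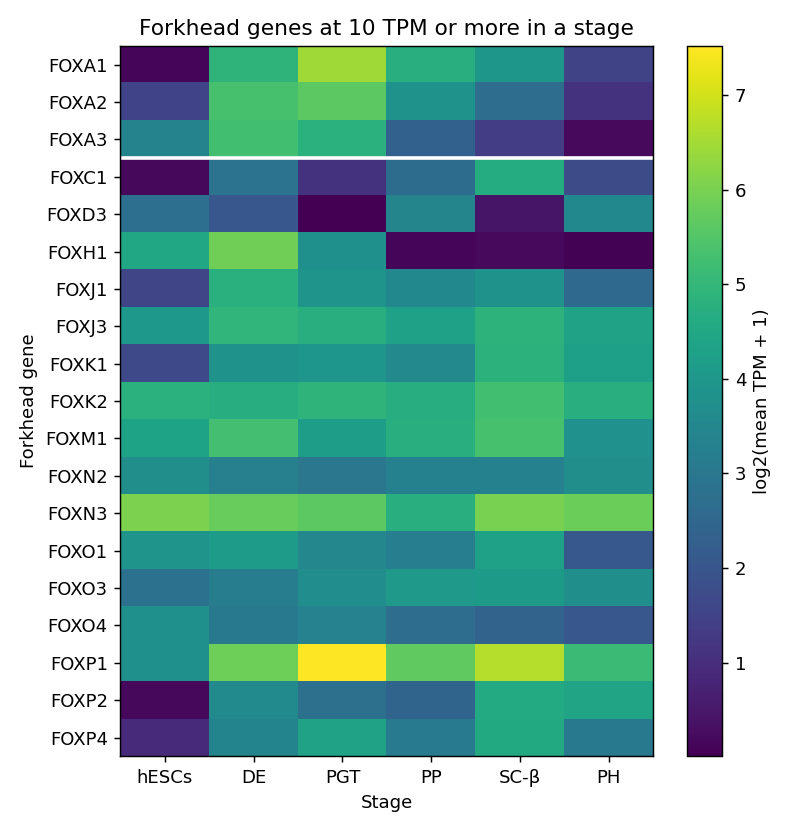
Log2(mean TPM + 1) (colour) of the forkhead genes (rows) that reached 10 TPM in a stage (columns), with the FOXA genes above the white line. FOXA1 and FOXA2 share their highest stage, PGT, with FOXP1, whereas 8 of the other genes are highest in SC-β.

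The genes beside each member were read from the annotation. TTC6, a gene of tetratricopeptide repeats on the opposite strand, overlaps the FOXA1 gene by 431 bases, with 16 exonic bases in common, none of which belong to the canonical FOXA1 transcript. TTC6 was at 0.236 TPM in hESCs, 18.2 TPM in DE, 33.4 TPM in PGT, 12.9 TPM in PP, 1.25 TPM in PH and 7.12 TPM in SC-β. Its order of stages was that of FOXA1, with Pearson's r of log2(TPM + 1) over the 6 stages of 0.994. This order was shared by 51 of 12079 names that reached 10 TPM in some stage. Whether the counting used strand is not stated, so reads in the overlap cannot be assigned. MIPOL1, 10426 bases from FOXA1, had a flatter course, between 6.68 TPM in PH and 26.5 TPM in DE.

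LINC00261, a long noncoding RNA 2355 bases from FOXA2 on the same strand and with no exonic overlap, was at 0.546 TPM in hESCs, 72.9 TPM in DE, 198 TPM in PGT, 47.8 TPM in PP, 3.27 TPM in PH and 17.3 TPM in SC-β. It exceeded FOXA2 in every stage but hESCs. Its r over the stages was 0.944 with FOXA2 and 0.992 with FOXA1, which lies on another chromosome. Only 12 of the names tested had a higher log2 ratio than its 5.58 in DE against hESCs.

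Of the 14 other genes within 100 kb of FOXA3 or next to it, 9 were in the table, and their r with FOXA3 was at most 0.451. SYMPK, a scaffold of the polyadenylation machinery 794 bases from FOXA3, was lowest in hESCs, at 24.6 TPM, and highest in SC-β, at 53.5 TPM, and its r with FOXA3 was 0.150. For IRF2BP1 r was -0.0696, and for MYPOP it was 0.451. The lowest r was that of NOVA2, a neuronal splicing regulator, at -0.845. NOVA2 was between 0.181 and 0.463 TPM in hESCs, DE, PGT and PP, at 1.88 TPM in SC-β and at 8.14 TPM in PH, where FOXA3 was lowest. DMWD had an r of -0.486. Each r is a description over 6 points that share the scaling of their stage.

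**Figure D5:**
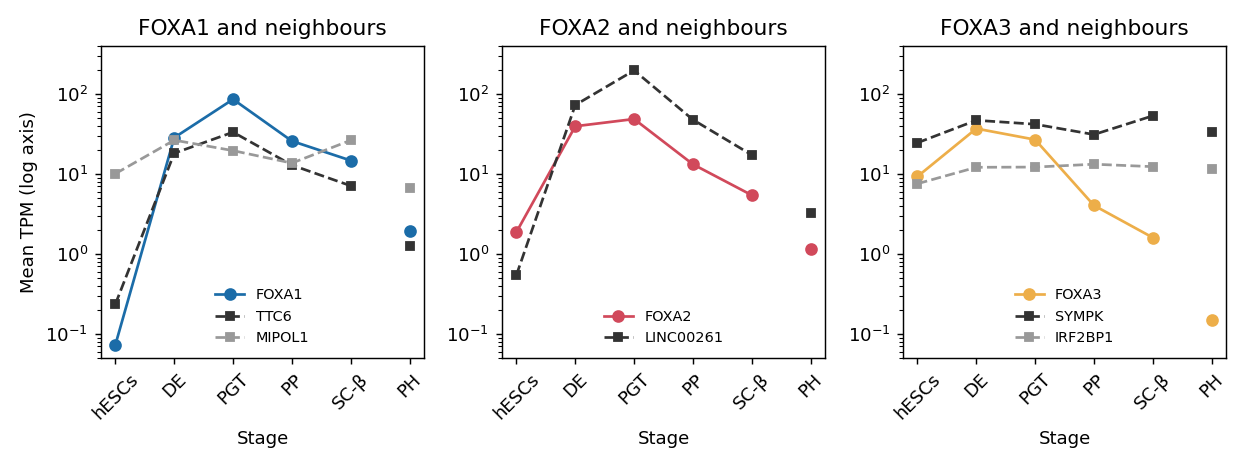
Mean TPM (log axis) in each stage of FOXA1, FOXA2 and FOXA3 (circles) and of genes beside them (squares); points are means with no error bars, and PH is set apart. TTC6 and LINC00261 rank the stages from PGT down to hESCs in the order of FOXA1, while SYMPK stays between 24.6 and 53.5 TPM.

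Promoter sequences of 250 bases before to 50 after the start were taken from RefSeq (GRCh38.p14), which matched 2 of the 3 genes, FOXA1 and FOXA3, and not FOXA2. They are shown because they were the 2 found, and these genes also had the most different courses among the members. In the FOXA3 promoter, capitals mark TATAAA, and the FOXA1 promoter holds none of the motifs searched.
FOXA1 promoter, chr14:37595200-37595499, reverse strand: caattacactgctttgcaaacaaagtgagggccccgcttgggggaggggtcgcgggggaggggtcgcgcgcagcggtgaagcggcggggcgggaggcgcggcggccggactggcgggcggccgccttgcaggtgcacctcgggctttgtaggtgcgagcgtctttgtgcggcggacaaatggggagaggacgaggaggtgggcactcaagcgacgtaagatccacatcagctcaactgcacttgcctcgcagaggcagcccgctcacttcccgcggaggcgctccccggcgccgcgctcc
FOXA3 promoter, chr19:45864076-45864375, forward strand: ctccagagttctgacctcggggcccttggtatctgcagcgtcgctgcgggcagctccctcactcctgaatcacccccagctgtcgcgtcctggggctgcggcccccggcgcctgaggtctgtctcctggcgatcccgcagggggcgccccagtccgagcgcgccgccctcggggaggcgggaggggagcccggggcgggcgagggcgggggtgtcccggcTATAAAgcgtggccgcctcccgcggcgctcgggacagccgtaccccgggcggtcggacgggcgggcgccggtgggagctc

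Both were rich in G and C, at 69.3% for FOXA1 and 76.3% for FOXA3, against a median of 58.7% over 35116 promoters. They held 34 and 37 CpG dinucleotides, against a median of 14. The letters searched on both strands were TGTTTAC and TATTTAC, as bound by forkhead factors, AGATAA, as bound by GATA factors, and TATAAA, the TATA box. These were found in 3.42%, 2.67%, 10.3% and 11.5% of all promoters. TATAAA in FOXA3 begins 30 bases before the start. Only these exact letters were searched, and variants of them were not, so no match does not mean that no site is present. A match is a description of letters and not of binding.

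Likeness was measured as Pearson's r of log2(TPM + 1) over the 6 stages, among 12079 names that reached 10 TPM in some stage. Among the members themselves r was 0.906 for FOXA1 and FOXA2, 0.798 for FOXA2 and FOXA3, and 0.480 for FOXA1 and FOXA3. Without PH these were 0.892, 0.680 and 0.287. FOXA2 thus was between the other members in its course.

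The 8 genes most like FOXA1 were ZNF271P, DDX52, TTC6, C1RL, LINC00261, CCDC125, FLRT3 and SPOPL, with r from 0.989 to 0.997. Those most like FOXA2 were MYO6, C1orf168, MED7, SLCO2A1, RBM7, TDP2, GATA4 and FOLR1, with r from 0.983 to 0.993. Among the 8 most like FOXA3 were YARS2, CTSV, XKR8, CHST9, ZNF883, ZNF813 and ARSE, with r from 0.986 to 0.992. Likeness by r says nothing of amplitude. ZNF271P ranged only from 12.9 to 19.4 TPM, whereas FLRT3, a membrane protein of the endoderm, ranged from 4.90 to 396.9 TPM. With 6 points the lists were unstable, and without PH 3, 3 and 2 of the 8 genes stayed among the first 8 of FOXA1, FOXA2 and FOXA3.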

How the data were processed

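RNA-seq of 12 samples, 2 per stage, was used. HISAT2 version 2.2.0 was used by the authors to align paired-end reads of 50 bases to hg38. The values the authors deposited are TPM estimated with StringTie version 2.1.6, as 1 mean per gene and stage. The labels name both RiboMinus and a TruSeq Stranded mRNA kit. The annotation is not given in the sources used here. The other assays of the series were not used.

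The table holds 50451 entries under 49085 names, and the 231 repeated names were summed. Shares, log2((TPM + 1)/(TPM + 1)) and Pearson's r were computed, with names at 1 TPM or more in a stage counted as tested (28202) and 2-fold as the threshold. Without replicate values or counts, no test, interval or error can be given. The members and lists were chosen with earlier results of these data known. Named genes were the members, up to 6 genes of a list by level or ratio, the 8 most like each member at 10 TPM or more, and annotated neighbours within 100 kb. Protein identity was planned and was replaced by transcript identity. Some genes that these rules cover are not reported here, and the counts of the pancreatic list were recomputed without such a gene after the data were examined.

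Alternatives were a pseudocount of 0.1, rescaling by the median ratio, totals without mitochondrial genes and the 100 most abundant names, a 4-fold threshold, Spearman's rho and leaving out PH. The highest entry of a repeated name in place of the sum, and no filter on low values, were also tried. The calculation was checked on simulated data, which says nothing of replicate error. The software was pandas 2.3.3 and numpy 2.4.6 in Python 3.11.15, with matplotlib 3.10.9 for plots.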

Additional observations from a re-analysis of the deposited data

How the results depend on the processing

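No paired analysis was possible because the table holds 1 mean per stage, and leaving out a replicate could not be done for the same reason. Of 120 alternative log2 ratios of the members, 113 stayed on their side of 2-fold, 5 passed it, 2 lost it and 0 changed sign. Of the 113, 30 took the highest entry of a name and could not move, since each member has a single entry. The 18 recomputed shares moved by at most 2.41 points. In SC-β against PP, FOXA1 passed 2-fold with rescaling (-1.02) and without the mitochondrial and most abundant names (-1.04), and FOXA3 with a pseudocount of 0.1 (-1.28), rescaling (-1.12) and the reduced total (-1.34). With rescaling, FOXA2 in SC-β against hESCs was at 0.77 and FOXA3 in PH against SC-β at -0.995, both short of 2-fold.

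With a pseudocount of 0.1 the names past 2-fold numbered 13402 (DE), 12850 (PGT), 11660 (PP) and 15406 (PH) against hESCs, 7070 in PGT against DE, 6500 in PP against PGT, 10241 in SC-β against PP, 10069 in PH against PP and 12937 in PH against SC-β. At 4-fold they numbered 1387, 1675, 1477, 2879 and 3273 in DE, PGT, PP, PH and SC-β against hESCs, 832 in PGT against DE, 695 in PP against PGT, 907 in SC-β against PP, 1154 in PH against PP and 1456 in PH against SC-β. With the pseudocount of 0.1, other forkhead genes counted 5 lower in DE against hESCs, 11 lower in PGT against DE, 7 higher in PP against PGT, and 9 higher and 7 lower in PH against PP. In the main calculation these counts were 1, 6, 4, and 3 and 3. Shares of all names by direction were not computed with this pseudocount. Endoderm partner factors counted 2 higher in PP against PGT, 5 higher and 5 lower in SC-β against PP, and 2 higher in PH against PP. Their main counts were 1, 3 and 3, and 1. Pancreatic genes counted 3 higher and 1 lower in DE against hESCs, 1 higher and 3 lower in PGT against DE, and 1 higher and 7 lower in PH against PP. Their main counts were 1 and 0, 0 and 0, and 0 and 3. With rescaling, 4 other forkhead genes were lower in DE against hESCs, 5 endoderm partner factors lower in SC-β against PP, and 0 pancreatic genes higher and 2 lower in DE against hESCs. A low pseudocount weighs changes below 1 TPM more, and the cause of the other moves was not tested. Of the 8 genes most like FOXA1, FOXA2 and FOXA3, 3, 3 and 2 stayed without PH, and 5 of those of FOXA2 had a Spearman's rho of 1. With unknown depth, values below 1 TPM, such as FOXA1 in hESCs and FOXA3 in PH, carry an error that cannot be given.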

Other observations

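FOXA2 is also known from the floor plate and notochord, the embryonic midline that secretes SHH. Of 10 genes of that list, 8 were at 1 TPM or more in SC-β, with a sum of 127 TPM, against 11.9 TPM in hESCs, 29.5 TPM in DE, 45.2 TPM in PGT, 37.8 TPM in PP and 37.2 TPM in PH. SHH itself was highest in PGT, at 32.6 TPM, the stage in which FOXA1 and FOXA2 were highest. CORIN and LMX1A, of the floor plate, were highest in SC-β, at 39.1 and 32.2 TPM, where FOXA2 was at 5.44 TPM. SPON1, LMX1B and NKX2-2 were likewise highest in SC-β, but the rest of the list was not. NTN1 and T were highest in DE, at 11.1 and 2.85 TPM, against 3.88 and 0.252 TPM in SC-β. CHRD was highest in PGT, at 9.62 TPM against 2.72 TPM in SC-β, and NOTO in hESCs, at 0.182 TPM against 0.0221 TPM.

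The Groucho/TLE family includes co-repressors that bind FOXA proteins. Of 6 genes of the family, 4 were at least 2-fold higher and 0 lower in DE against hESCs. These were TLE2, TLE3, TLE6 and AES, and binding of each to FOXA proteins was not examined. In this step all 3 FOXA genes and 22.5% of all names were higher. TLE2 was at 2.58 TPM in hESCs, 29.7 TPM in DE, 47.3 TPM in PGT, 21.3 TPM in PP, 10.3 TPM in PH and 10.1 TPM in SC-β, and like FOXA1 and FOXA2 it was highest in PGT. TLE1 was highest in SC-β, at 66.8 TPM.

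Genes of lung and other tissues that use FOXA proteins summed to between 54.6 TPM in DE and 138 TPM in PGT, but SOX2 alone was 133 of the 137 TPM in hESCs. Without SOX2 the sum was 4.06 TPM in hESCs, 32.2 TPM in DE, 137 TPM in PGT and 38.8 TPM in PP. In PH it was 9.98 TPM and in SC-β 64.5 TPM. This sum was highest in PGT, as was FOXA1, but VIL1 alone was 125 of the 137 TPM there. In SC-β, VIL1 was at 23.7 TPM. NKX2-1, which marks lung and thyroid, was at 1.60 TPM in PGT and 2.68 TPM in SC-β.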
